A study of Arabidopsis thaliana with 12 samples.

Results

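The 10 genes described here act in the making, modification and activation of indole glucosinolates. They were chosen by name and locus code, as a set of enzymes and regulators of this pathway, with earlier results of these data known. All 10 were found among the 28775 genes listed. Their transcript levels were followed across 12 RNA sequencing libraries of Arabidopsis thaliana Col-0 seedlings, in 4 groups of 3. The series asked which starvation-responsive genes are controlled by SnRK1, a protein kinase that senses low energy, and by the S1 group of bZIP transcription factors.

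In the SnRK1-labelled line, a snrk1-alpha-1 ko was combined with an inducible knockdown of snrk1-alpha-2, and its wild-type (WT) plants were treated alongside. Both received the additive that the labels call Est for 6 d from an age of 14 d. In the S1-labelled line, bZIP1/bZIP53 ko was combined with an inducible knockdown of bZIP2/-11/-44, and it had a WT of its own. These plants grew for 5 d more on MS and then received Est for 1 d. All seedlings, aged 3 weeks, went through 6 h of extended night and a common harvest. Every group therefore shared Est and the extended night, and no library shows the genes without them. The labels give neither the promoter behind the inducible knockdowns nor the number of independent clones.

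Glucosinolates are sulfur-rich glucosides of Brassicales, and those with an indole side chain are made from tryptophan. They are inert until a thioglucosidase removes the glucose, and the products then act against herbivores and microbes. In leaves of Arabidopsis, attack by fungi draws on indole glucosinolates that are hydroxylated and methylated on the ring and then cleaved by the enzyme PEN2.

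The nearby upstream sequences of 4 of the genes are given first: the regulator MYB51, the core enzymes CYP83B1 and SUR1, and the ring hydroxylase CYP81F2. All 4 are genes called higher in the SnRK1-labelled line, and IGMT1, which was not called there, is not among them. Each is the 250 bases before the annotated transcript start, read 5′ to 3′ on the gene's strand from TAIR10.1, the build of the annotation used here. The submitters' processing notes name TAIR10, and the genes were joined to TAIR10.1 by locus code only. The windows are chr1:6389149-6389398 on the plus strand for MYB51, chr4:15275405-15275654 on the minus strand for CYP83B1, chr2:8880441-8880690 on the minus strand for SUR1 and chr5:23187590-23187839 on the plus strand for CYP81F2. Capitals mark matches, on either strand, to 4 short motifs that were chosen after the counts had been seen: TTGAC (the core of the W-box bound by WRKY factors), CACGTG (the G-box), ACTCAT (a motif bound by S1 bZIPs) and GCCGCC (the core of the GCC-box bound by ERF factors).
MYB51: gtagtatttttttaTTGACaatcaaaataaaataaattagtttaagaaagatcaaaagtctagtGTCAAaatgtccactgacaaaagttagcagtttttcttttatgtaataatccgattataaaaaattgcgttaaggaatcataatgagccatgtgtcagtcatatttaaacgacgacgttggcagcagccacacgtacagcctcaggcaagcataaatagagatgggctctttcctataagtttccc
CYP83B1: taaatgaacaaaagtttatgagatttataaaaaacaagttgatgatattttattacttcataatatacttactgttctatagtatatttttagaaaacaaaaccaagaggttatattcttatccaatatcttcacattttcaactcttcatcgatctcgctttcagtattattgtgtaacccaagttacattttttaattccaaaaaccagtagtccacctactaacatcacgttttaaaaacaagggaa
SUR1: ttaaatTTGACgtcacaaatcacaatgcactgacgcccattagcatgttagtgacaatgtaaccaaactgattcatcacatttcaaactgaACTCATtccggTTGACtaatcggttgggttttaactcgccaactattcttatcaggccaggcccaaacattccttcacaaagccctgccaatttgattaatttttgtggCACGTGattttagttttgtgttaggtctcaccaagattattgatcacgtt
CYP81F2: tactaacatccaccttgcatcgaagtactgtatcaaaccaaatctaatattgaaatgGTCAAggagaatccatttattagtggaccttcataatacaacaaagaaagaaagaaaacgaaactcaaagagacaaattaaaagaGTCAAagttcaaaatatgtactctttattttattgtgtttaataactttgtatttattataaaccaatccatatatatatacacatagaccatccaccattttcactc

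The MYB51 and CYP81F2 windows each held 2 matches to TTGAC and none to the other motifs. The SUR1 window held 2 matches to TTGAC, 1 to CACGTG and 1 to ACTCAT, and the CYP83B1 window held none. The windows shown include every gene of the set with 2 matches to TTGAC. Of the windows not shown, IGMT1 and PEN2 held 1 match to it each and the others none. Over the set, TTGAC was present in 5 of 10 windows, against 44.9% of 27443 windows of the same length in the genome. CACGTG was present in 1 of 10 against 6.49%, ACTCAT in 2 of 10 (SUR1 and MYB34) against 12.3%, and GCCGCC in 0 of 10 against 1.87%. A match describes these letters only, and no binding was measured.

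Library totals ran from 3760168 to 9403687 counts, and 18388 genes had enough counts to be tested. The 10 most abundant genes took 4.1% to 5.27% of counts in the SnRK1-labelled line, against 10.84% to 12.32% in its WT. In this line the targeted genes KIN10 and KIN11 were at 60.2 to 65.6 and 28.3 to 43.4 CPM (counts scaled to a common library size), against 78.5 to 99.6 and 85.4 to 114 CPM in its WT. By edgeR's quasi-likelihood test, their log2 fold changes were -0.50 (adjusted p = 0.00112) and -1.58 (adjusted p = 1.86e-07). In the S1-labelled line bZIP1 and bZIP53 were lower (-2.62 and -2.26). Of the targets of the inducible knockdown, bZIP2 was not called lower (0.01, adjusted p = 0.979). Nor was bZIP44 (0.85, adjusted p = 0.322), with 38 counts over the line and 17 over its WT. The third target, bZIP11, had 25 counts over the line and 23 over its WT. It passed the filter on low counts only through the SnRK1-labelled line, so no p-value is given for it. At such counts a knockdown of bZIP11 or bZIP44 could hardly be seen. The lines are therefore called by their labels throughout. Each of these bZIP genes had the same counts as an adjacent locus, so its reads may come from either. KIN11 was lower in the S1-labelled line too (-0.80, adjusted p = 0.0135). KIN10 averaged 62.5 CPM in the SnRK1-labelled line and 65.9 CPM in the S1-labelled line. Transcripts of both KIN10 and KIN11 thus remained in the SnRK1-labelled line, though its label names a ko. The leaf markers RBCS1A, RCA and LHCB4.1 summed to 2571 to 5077 CPM in the SnRK1-labelled line, against 18139 to 25007 in its WT. In the S1-labelled line they summed to 20104 to 24351, against 25593 to 29394 in its WT. The 5 root markers summed to 1.76 to 1.9 CPM in the SnRK1-labelled line, against 9.14 to 12.7 CPM in its WT, where EXPA7 was at 0 counts. CASP1 and CASP2 made up most of the WT sum, whereas MYB36 averaged 0.914 CPM in the line and 0.403 CPM in its WT. The 3 flower markers summed to 0.15 to 0.878 CPM in the line, against 1.98 to 8.08 CPM in its WT. That WT sum was PI alone, with AP3 and AG at 0 counts there and at 1 and 2 counts in the line. The 3 seed markers reached 0.289 CPM at most. The part of these tissue markers in the results was not tested. In whole seedlings, fewer cells of a type and less RNA per cell cannot be told apart. Since no label states that the replicates are independent cultures, the p-values cover the spread among these libraries alone, and that spread may be technical.

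In the SnRK1-labelled line, 8 of the 9 genes that could be tested in both experiments had more transcript than in its WT, from the MYB regulators through the core enzymes to the thioglucosidase PEN2. Their log2 fold changes ran from 1.28 for PEN2 to 3.86 for CYP83B1. The methyltransferase gene IGMT1 stood apart, with no call in either direction. The tenth gene, MYB122, gave counts almost entirely in the SnRK1-labelled line and is described separately, since it passed the filter on low counts only through those libraries. The 9 genes had a median log2 fold change of 2.69, against 0.04 over all genes tested. Of all genes tested, 35.4% were called higher and 33% lower in this comparison (68.4% in either direction), so a call alone says little. In the same 8 genes every library of the line was above every library of its WT, as in 36.9% of genes tested. A rise of at least 2-fold was called for 23.1% of genes tested, and the same 8 genes met that too. Values are normalised CPM of libraries 1, 2 and 3, and log2 fold changes have standard errors and Benjamini-Hochberg adjusted p-values over 18388 genes.

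**Figure D1:**
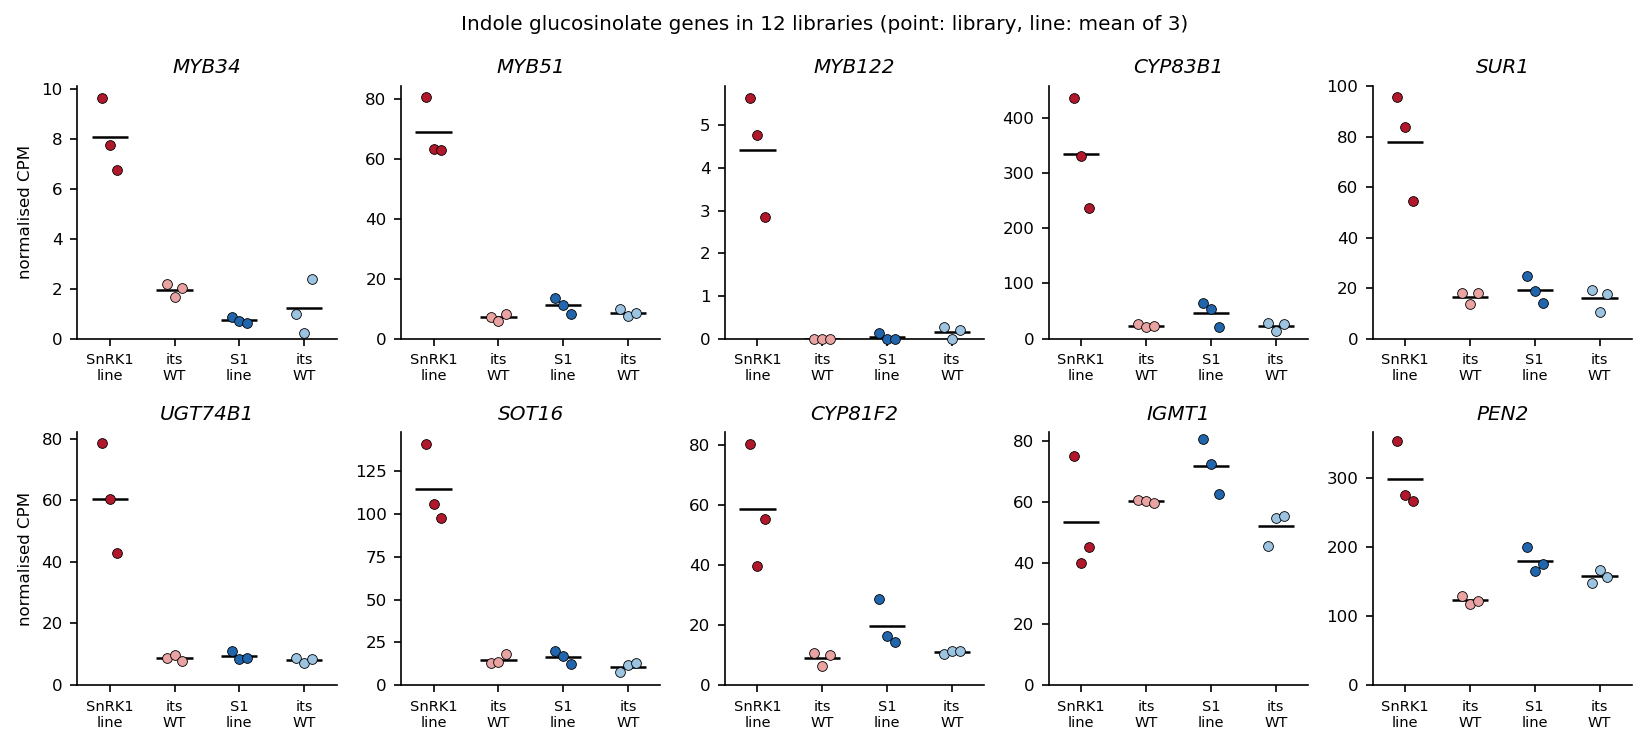
Transcript levels of the 10 genes as normalised CPM (vertical axes, each starting at 0) in each library; points are libraries and lines are means of 3. The SnRK1-labelled line lies above the other 9 libraries for every gene but IGMT1; for MYB51 its libraries reach 62.8 to 80.5 CPM, against 5.93 to 8.08 CPM in its WT.

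Among the regulators, MYB51 (AT1G18570, chromosome 1, plus strand, 3 exons) encodes an R2R3-MYB factor that drives indole glucosinolate genes, chiefly in shoots. It was at 80.5, 63.1 and 62.8 CPM in the SnRK1-labelled line and at 7.33, 5.93 and 8.08 CPM in its WT. The lowest library of the line was well above the highest of the WT. The log2 fold change was 3.29 ± 0.18 (adjusted p = 1.39e-10). MYB34 (AT5G60890, chromosome 5, plus strand, 3 exons), also called ATR1, is the related factor known mainly from roots. It was at 9.65, 7.76 and 6.76 CPM in the SnRK1-labelled line and at 2.19, 1.65 and 2.02 CPM in its WT. The groups were again separate, at a far lower level and with a smaller log2 fold change of 2.03 ± 0.34 (adjusted p = 4.69e-05).

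MYB122 (AT1G74080, chromosome 1, plus strand, 3 exons) encodes the least abundant factor of this trio, with a minor or conditional role in the pathway. It had 45, 53 and 19 counts in the SnRK1-labelled line and 0 counts in each of the 3 WT libraries. As normalised values the line's libraries were at 5.64, 4.78 and 2.85 CPM. Pooled over the 3 libraries, the 117 counts of the line equal 4.55 CPM. Against a floor of 3 counts in the pooled WT libraries, equal to 0.173 CPM, the pooled level was at least 26.3-fold higher in the line. This floor covers counting error only. No p-value is given, because the gene was tested only through its level in the line. In the S1-labelled line MYB122 had 1, 0 and 0 counts, and in its WT 2, 0 and 1, so no fold is given there.

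The shares of the 3 factors in the MYB pool were then set out, scaled by transcript length. MYB51 held 83.3%, 82.6% and 86.2% of the summed CPM per kb of MYB34, MYB51 and MYB122 in the SnRK1-labelled line, and 76.9%, 78.2% and 79.9% in its WT. MYB34 held 10%, 10.2% and 9.32% of this sum in the line, and 23.1%, 21.8% and 20.1% in its WT. MYB122 took 4.48% to 7.16% in the line. Neither share overlapped between line and WT, while the pool itself was at 54.1, 42.8 and 40.8 CPM per kb in the line and at 5.34, 4.25 and 5.66 CPM per kb in its WT. MYB122 is part of the summed pool and passed the filter on low counts only through the line. For that reason no p-value is given for these shares or for the sum. With 3 libraries against 3, a two-sided exact permutation test cannot go below p = 0.10. That value is 0.17 when adjusted over the 20 comparisons of shares and ratios made. These shares and ratios were chosen after the counts had been seen.

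**Figure D2:**
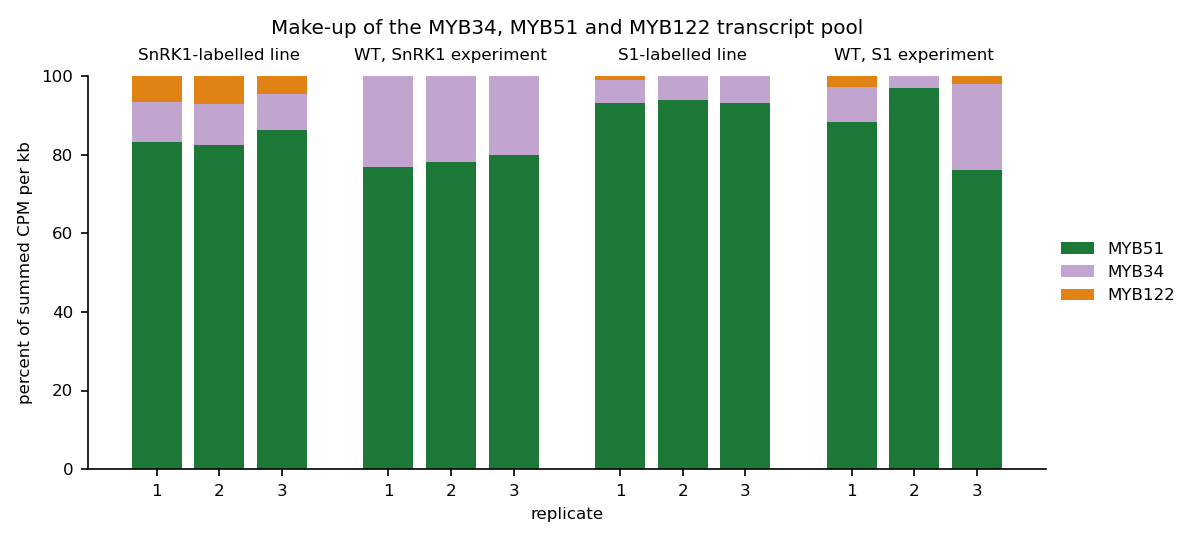
Share of MYB51, MYB34 and MYB122 in their summed CPM per kb (vertical axis, percent) in each library, by replicate (horizontal axis) and group. MYB34 takes 9.32% to 10.2% in the SnRK1-labelled line, against 20.1% to 23.1% in its WT, and MYB122 is seen in all 3 libraries of the line and in none of its WT.

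The 4 core enzymes of the set had a median log2 fold change of 2.89. CYP83B1 (AT4G31500, chromosome 4, minus strand, 2 exons) encodes the cytochrome P450 that oxidises indole-3-acetaldoxime and so commits it to glucosinolates. It was at 437, 332 and 237 CPM in the SnRK1-labelled line and at 25.9, 20.2 and 23.1 CPM in its WT. The libraries of the line spread widely, yet the lowest was far above the WT. At 14.5-fold (log2 fold change 3.86 ± 0.35, adjusted p = 6.05e-08), its fitted change was the largest of the 9 genes.

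SUR1 (AT2G20610, chromosome 2, minus strand, 7 exons) encodes the C-S lyase that frees the thiohydroximate, a step shared with other glucosinolates. It was at 95.8, 83.7 and 54.5 CPM in the SnRK1-labelled line and at 17.9, 13.8 and 18.2 CPM in its WT. Its log2 fold change of 2.24 ± 0.23 (adjusted p = 2.71e-07) was the smallest of the 4 core enzymes. The level of CYP83B1 over that of SUR1, per kb, was 4.31, 3.75 and 4.1 in the line and 1.37, 1.38 and 1.2 in its WT, without overlap (exact permutation p = 0.10, 0.17 adjusted).

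UGT74B1 (AT1G24100, chromosome 1, minus strand, 2 exons) encodes the glucosyltransferase that adds glucose to the sulfur. It was at 78.5, 60.3 and 43 CPM in the SnRK1-labelled line and at 8.88, 9.71 and 7.79 CPM in its WT (log2 fold change 2.77 ± 0.20, adjusted p = 3.96e-09). SOT16 (AT1G74100, chromosome 1, minus strand, 1 exon) encodes the sulfotransferase that finishes the core molecule, with a preference for indole substrates. It was at 141, 106 and 97.5 CPM in the SnRK1-labelled line and at 12.6, 13.3 and 17.9 CPM in its WT (log2 fold change 3.01 ± 0.20, adjusted p = 1.88e-09). Both genes kept line and WT fully apart, and for CYP83B1, SUR1, UGT74B1 and SOT16 replicate 3 was the lowest of the line.

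The ring hydroxylase CYP81F2 (AT5G57220, chromosome 5, plus strand, 3 exons) introduces the hydroxyl group that leads to 4-methoxyindol-3-ylmethylglucosinolate, the form needed for callose deposition after attack. It was at 80.4, 39.6 and 55.4 CPM in the SnRK1-labelled line and at 10.6, 6.42 and 10.1 CPM in its WT. The groups did not overlap, although replicate 1 of the line stood well above the other libraries of the line. The log2 fold change was 2.69 ± 0.28 (adjusted p = 2.77e-07). Among the 4 genes CYP81F1 to CYP81F4, CYP81F2 held 51.6%, 44.7% and 49.6% of the summed CPM per kb in the line, against 17.8%, 11.5% and 16.6% in its WT (exact permutation p = 0.10, 0.17 adjusted). That sum is uncertain, since genes on the opposite strand overlap 98.4% of the exon bases of CYP81F1 and 88.2% of those of CYP81F4.

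IGMT1 (AT1G21100, chromosome 1, minus strand, 3 exons) encodes an O-methyltransferase that acts on the hydroxylated ring. It was at 75, 39.9 and 45.2 CPM in the SnRK1-labelled line and at 60.7, 60.1 and 59.7 CPM in its WT. Replicate 1 of the line was above its WT and the other libraries of the line below. The log2 fold change was -0.18 ± 0.18 (95% interval -0.60 to 0.24, adjusted p = 0.401), which covers modest changes either way. Without replicate 1 of the line it was -0.51 and called lower (adjusted p = 0.00355). With scaling by library totals it was 0.40 and called higher (adjusted p = 0.0342), and scaled on the 5000 most expressed genes it was 0.18 (adjusted p = 0.373). Under those scalings the median of all genes was 0.64 and 0.40, so IGMT1 lay below the median of all genes under each. Of its distinct 50-base stretches, 12.1% occur in other genes, mostly IGMT4, so its counts may be split.

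IGMT2, which acts beside IGMT1, and IGMT3 were higher in the SnRK1-labelled line (log2 fold changes 1.45 and 0.74). IGMT5 passed the filter on low counts only through the line, with 124, 57 and 35 counts in the line and 8, 5 and 6 in its WT. IGMT4, the most abundant of the family, was not called (log2 fold change -0.12, adjusted p = 0.575) and took the opposite sign under both of those scalings, with a call under library totals (0.46, adjusted p = 0.0156) and none on the 5000 most expressed genes (0.23, adjusted p = 0.243). IGMT2 shares 35.0% of its 50-base stretches with IGMT3, so their levels are uncertain. Summed over IGMT1 to IGMT5, the level was 363, 206 and 298 CPM per kb in the line and 278, 279 and 236 CPM per kb in its WT, with overlap. No p-value is given, since IGMT5 is part of the sum. IGMT2 held 9.91%, 12.7% and 14.8% of this sum in the line, against 4.71%, 5.52% and 3.9% in its WT, and IGMT4 held 58.9% to 60.9%, against 69.1% to 72.2%.

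PEN2 (AT2G44490, chromosome 2, plus strand, 11 exons) encodes the atypical thioglucosidase that activates indole glucosinolates inside living cells at sites of attack. It was at 354, 275 and 267 CPM in the SnRK1-labelled line and at 129, 118 and 122 CPM in its WT. Its WT level was already high and its change was the smallest of the 8 called genes (2.43-fold, log2 fold change 1.28 ± 0.13, adjusted p = 2.71e-07), with no overlap.

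The classical myrosinase genes went the other way. TGG1, expressed in myrosin and guard cells, was at 321, 229 and 557 CPM in the SnRK1-labelled line and at 1947, 1848 and 1269 CPM in its WT (log2 fold change -2.20, adjusted p = 2.36e-06). TGG2 was at 76.6, 56.6 and 168 CPM in the line and at 685, 570 and 371 CPM in its WT (-2.44, adjusted p = 7.75e-06). PEN2 over the sum of TGG1 and TGG2, per kb, was 0.761, 0.824 and 0.316 in the line and 0.0419, 0.0417 and 0.064 in its WT (exact permutation p = 0.10, 0.17 adjusted). TGG1 and TGG2 were listed as markers of myrosin cells, and the leaf markers fell with them. The part of tissue make-up in this ratio was not tested.

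**Figure D3:**
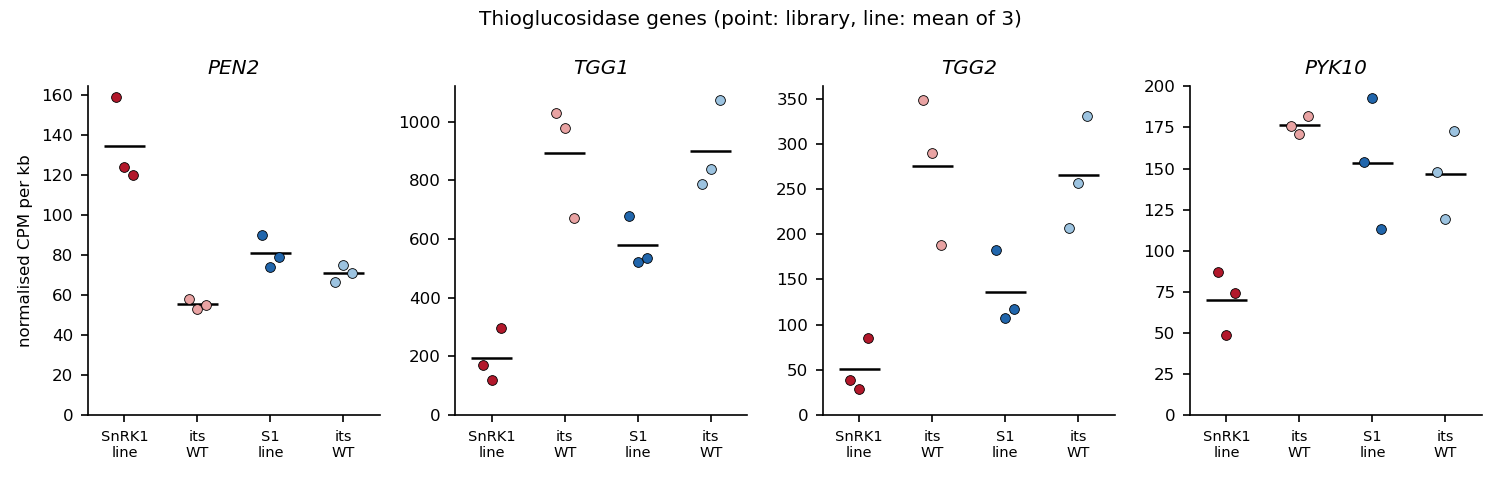
Normalised CPM per kb (vertical axes, each starting at 0) of the thioglucosidase genes PEN2, TGG1, TGG2 and PYK10 in each library; points are libraries and lines are means of 3. In the SnRK1-labelled line PEN2 lies above its WT and the other 3 genes lie below it.

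Ordered by CPM per kb, the genes stood differently in line and WT. In the SnRK1-labelled line CYP83B1 (mean 177) came first, with PEN2 (134) next and overlapping it, followed by SOT16 (85), clear of both neighbours. SUR1 (43.5), MYB51 (38.5), UGT74B1 (36.2), IGMT1 (34.5) and CYP81F2 (33.1) followed, each overlapping the next. MYB34 (4.54) and MYB122 (2.83) were last, each apart from the gene before it. In its WT, PEN2 (55.2) came first and IGMT1 (39) next, each separate from the following gene. CYP83B1 (12.1), SOT16 (10.8) and SUR1 (9.27) came after them, with overlaps. UGT74B1 (5.26), CYP81F2 (5.1) and MYB51 (3.98) overlapped in the same way, and MYB34 (1.1) was above MYB122, which was listed at 0 counts. The transcript of the regulator MYB51 thus stood among those of its enzymes in the line and, by its mean, below them in the WT.

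A list of 32 other genes of the pathway, also chosen with earlier results of these data known, was read in the same way. In the SnRK1-labelled line 20 were higher, 6 were lower and 6 were not called, with a median log2 fold change of 1.28. Without IGMT5 the counts were 19, 6 and 6 and the median 1.11. As 35.4% of all genes tested were called higher and 33% lower here, the small counts by role below say little alone. Both enzymes that precede CYP83B1 were higher: CYP79B2, which makes indole-3-acetaldoxime from tryptophan, was at 246, 220 and 131 CPM in the line and at 1.42, 2.3 and 3.75 CPM in its WT (log2 fold change 6.47 ± 0.35), and CYP79B3 had a log2 fold change of 2.13. The glutathione transferase genes GSTF9 and GSTF10 (2.05 and 3.26) and the peptidase gene GGP1 (3.38), which lie between CYP83B1 and SUR1, were higher too. GGP3, a relative of GGP1, was lower (-1.28). Of core synthesis genes in the list, 5 of 6 were therefore higher.

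APK1 and APK2 encode the kinases that make the sulfate donor used by SOT16, and both were higher (2.65 and 4.78). APK2 was at 96.3, 73.2 and 51.5 CPM in the line and at 2.32, 2.63 and 3.46 CPM in its WT. Of 3 relatives of CYP81F2, CYP81F3 was higher (2.00) and CYP81F1 was not called (-0.27, adjusted p = 0.0983). It was called higher under scaling by totals (0.33, adjusted p = 0.0377) and lower without replicate 3 of the line (-0.38, adjusted p = 0.0312). CYP81F4 was called higher (0.55, adjusted p = 0.0384) with overlapping groups, and lost the call without replicate 1 of the line (0.18, adjusted p = 0.389), among other settings.

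Among regulators, WRKY33 was higher (3.11), at 449, 294 and 308 CPM in the line and 43.1, 36.4 and 41.8 CPM in its WT. OBP2, a DOF factor (1.92), ERF6 (1.62) and MYC2 (1.11) were higher as well, though a gene on the opposite strand overlaps 98.5% of the exon bases of MYC2. MYC3 and MYC4, which bind the MYB factors, were not called (-0.15 and -0.39), and their sign turned under scaling by totals (0.43, adjusted p = 0.00813, and 0.22, adjusted p = 0.484). MYC3 was called lower without replicate 1 of the line (-0.30, adjusted p = 0.0496), and MYC4 without replicate 2 (-0.75, adjusted p = 0.0141). Of transport genes 3 of 4 were higher, among them PEN3, which encodes the ABC transporter that acts with PEN2 (log2 fold change 2.22), at 3313, 1807 and 1785 CPM in the line and 574, 419 and 487 CPM in its WT. The fourth, GTR3, was not called (0.25, adjusted p = 0.342), but was called higher under scaling by totals (0.85) and on the 5000 most expressed genes (0.62).

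Breakdown genes other than PEN2 were mostly lower, 5 of 7, against 33% of genes tested, and ESM1 was the exception that rose (3.01). TGG1, TGG2 and PYK10 (-1.34) encode thioglucosidases. NSP5 (-0.68), a nitrile specifier, was not called under scaling by totals (-0.10, adjusted p = 0.556) or on the 5000 most expressed genes (-0.33, adjusted p = 0.0659). ESP, the epithiospecifier (-0.75, adjusted p = 0.0441), lost its call in several settings, scaling by totals included (-0.14, adjusted p = 0.689). NSP1 was not called (0.15, adjusted p = 0.728) but was lower without replicate 1 of the line (-0.71, adjusted p = 0.00585).

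**Figure D4:**
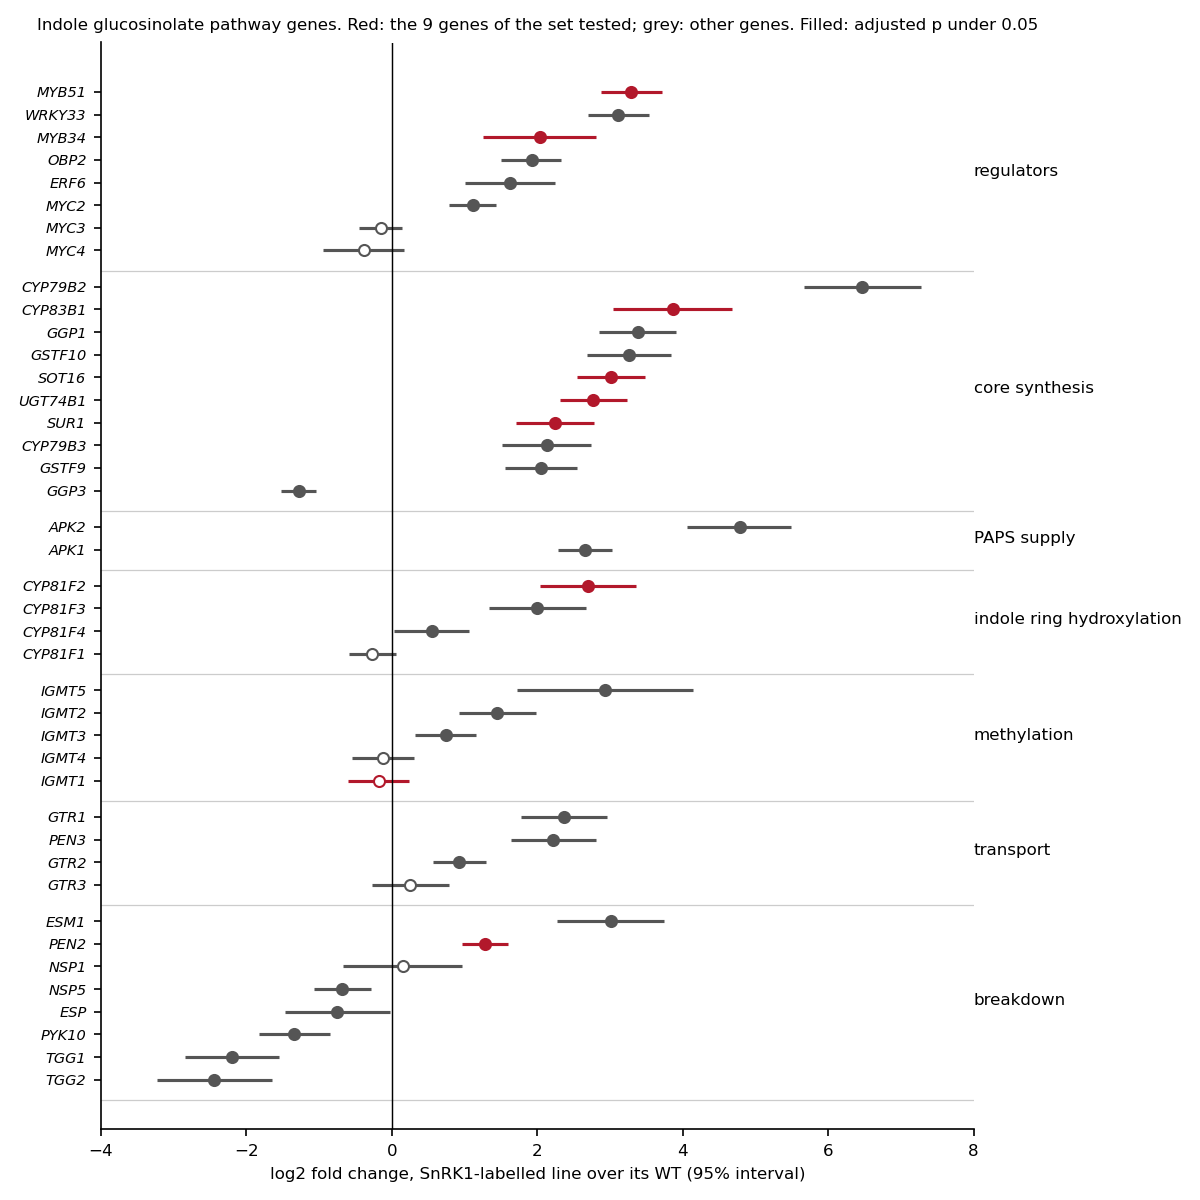
log2 fold changes of the SnRK1-labelled line over its WT (horizontal axis) with 95% intervals for genes of the pathway, grouped by role; red marks the 9 genes of the set and grey the 32 others, and filled points are called at an adjusted p under 0.05. Core synthesis points lie right of 0 with the exception of GGP3, and TGG1, TGG2 and PYK10 lie left of it. IGMT5, among the 32, passed the filter on low counts only through the line, so its filled point is not read as a call.

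In the S1-labelled line none of the 9 genes was called by edgeR's quasi-likelihood test, by DESeq2 or by limma-voom. In this comparison 1.63% of genes tested were called higher and 0.952% lower (2.58% in either direction). At an unadjusted p under 0.05 there were 4 of the 9, against 16.3% of genes tested: CYP83B1, SOT16, CYP81F2 and IGMT1, all with higher means in the line. The 9 genes had a median log2 fold change of 0.35, against -0.00 over all genes tested. In 2 of them, CYP81F2 and IGMT1, every library of the line was above every library of its WT, as in 11.6% of genes tested.

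CYP83B1 was at 64.9, 53.3 and 20.1 CPM in the S1-labelled line and at 28.6, 12.8 and 26.2 CPM in its WT. Replicate 3 of the line lay among the WT libraries. The log2 fold change was 1.01 ± 0.35 (95% interval 0.21 to 1.81, adjusted p = 0.141), and without that library it was 1.37 and called (adjusted p = 0.0179). It was also called with no filter on low counts (adjusted p = 0.0399). Over all alternatives its adjusted p ran from 0.0179 to 0.408.

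CYP81F2 was at 28.5, 16.2 and 14.4 CPM in the S1-labelled line and at 10.3, 11.4 and 11.4 CPM in its WT. The log2 fold change was 0.87 ± 0.29 (95% interval 0.19 to 1.54, adjusted p = 0.136). It was called in 4 of 21 alternatives, with adjusted p from 0.0315 to 0.458 over all of them, among the 4 scaling by totals (0.0497), no filter on low counts (0.0459) and the 2 groups alone in the fit (0.0315). Its share among CYP81F1 to CYP81F4 was 43.5%, 32.6% and 30.6% in the line and 22%, 20% and 22.3% in its WT (exact permutation p = 0.10, 0.17 adjusted).

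IGMT1 was at 80.6, 72.2 and 62.6 CPM in the S1-labelled line and at 45.6, 54.7 and 55.4 CPM in its WT (log2 fold change 0.48 ± 0.18, 95% interval 0.05 to 0.90, adjusted p = 0.198). It was called with the 2 groups alone in the fit (adjusted p = 0.0255) and without replicate 1 of the SnRK1-labelled line (adjusted p = 0.0403), and its adjusted p reached 0.4 in the others. SOT16 was at 20, 16.8 and 12.3 CPM in the line and at 7.6, 11.9 and 12.6 CPM in its WT. Replicate 3 of the line lay inside the WT range (log2 fold change 0.66 ± 0.23, adjusted p = 0.157). No alternative called it.

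The remaining genes had smaller or less certain differences in the S1-labelled line. MYB51 was at 13.5, 11.3 and 8.27 CPM in the line and at 9.85, 7.61 and 8.39 CPM in its WT (log2 fold change 0.35, 95% interval -0.11 to 0.81). For SUR1 the log2 fold change was 0.25 (-0.33 to 0.84), for UGT74B1 0.23 (-0.31 to 0.77) and for PEN2 0.20 (-0.11 to 0.50). MYB34 had 7, 4 and 4 counts in the line and 7, 1 and 12 in its WT (-0.72, interval -1.98 to 0.53), too few to place a change, and without replicate 3 of the WT the value was 0.08. For each of these 5 genes the interval lay wholly below that of the SnRK1-labelled line.

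Of the 32 other genes of the pathway none was called in the S1-labelled line, 0 higher and 0 lower by edgeR. Only 2.58% of genes tested were called there in either direction. The median log2 fold change of the 32 genes was 0.04. At an unadjusted p under 0.05 there were 7 of 32, against the same 16.3% of genes tested, and DESeq2 called ESP lower. With only the groups compared in the fit, GGP1 and PEN3 were called higher and TGG1, TGG2 and ESP lower. PEN2 over TGG1 plus TGG2 was 0.104, 0.118 and 0.121 in the line and 0.0668, 0.0684 and 0.0504 in its WT, without overlap (exact permutation p = 0.10, 0.17 adjusted). TGG1 was at 1284, 987 and 1013 CPM in the line and at 1491, 1584 and 2028 CPM in its WT (log2 fold change -0.64, adjusted p = 0.243). ESP came nearest to a call (-1.26, adjusted p = 0.0573).

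**Figure D5:**
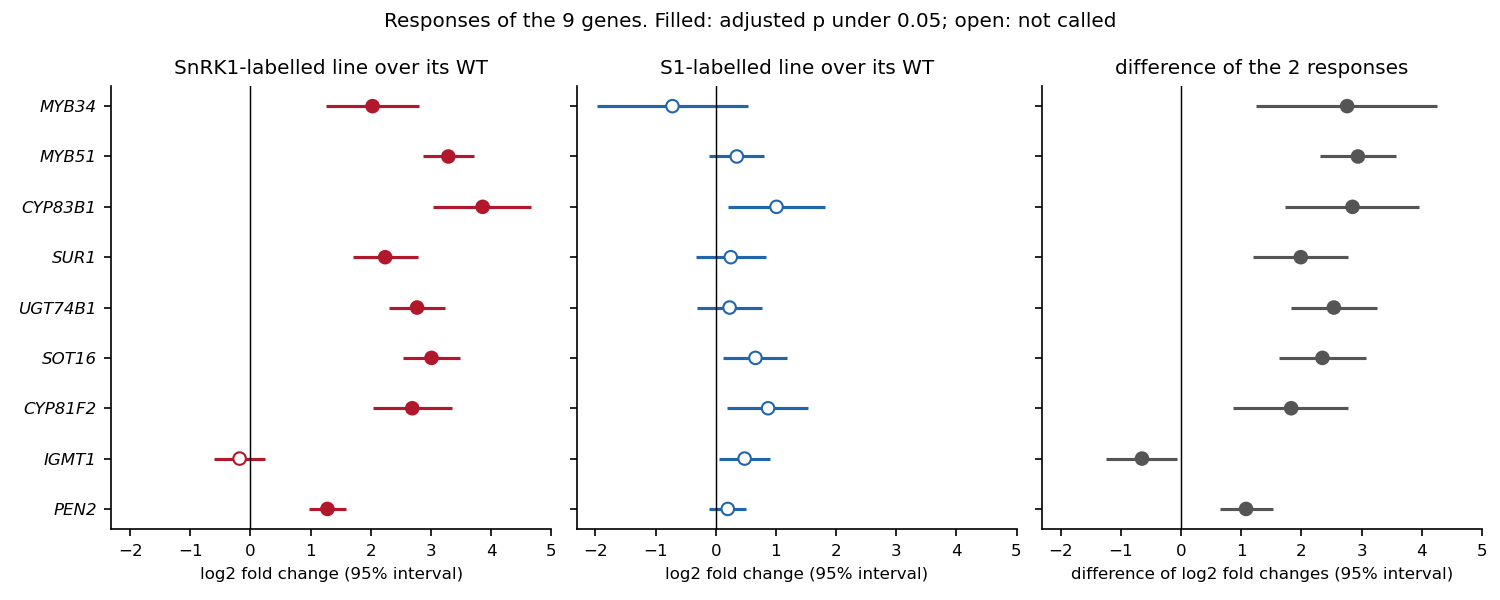
log2 fold changes with 95% intervals (horizontal axes) of the 9 genes in the SnRK1-labelled line and in the S1-labelled line, each over its own WT, and the difference of the 2 responses; filled points are called at an adjusted p under 0.05. The 8 genes called in the SnRK1-labelled line lie between 1.28 and 3.86, and those in the S1-labelled line between -0.72 and 1.01 with open points.

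The difference between the responses was tested directly in the same fit, and the 2 lines share no control library. Of the 9 genes, 8 responded more strongly upward in the SnRK1-labelled line and 1, IGMT1, was lower in this difference; 27.2% and 27.3% of genes tested were called in these directions. The median difference was 2.35 on the log2 scale, against 0.03 over all genes tested. It was largest for MYB51 (2.94 ± 0.27, adjusted p = 4.49e-07) and CYP83B1 (2.85 ± 0.48, adjusted p = 0.000119), and smallest among the upward genes for PEN2 (1.08 ± 0.19, adjusted p = 0.000141). For IGMT1 it was -0.65 ± 0.26 (adjusted p = 0.042), a call lost in 14 of 20 refits, with adjusted p up to 0.499. The lines also differ in days of Est and in genotype construction, which cannot be told apart in this difference.

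The WT groups gave the size of the difference between the experiments. By edgeR, DESeq2 and limma-voom none of the 9 genes was called between the WT of the SnRK1 experiment and that of the S1 experiment, where 6.17% of genes tested were called higher and 5.94% lower, and their median log2 fold change was 0.03. At an unadjusted p under 0.05 there was 1 of 9, against 27.7% of genes tested. This was PEN2, at 129, 118 and 122 CPM in the first WT and 148, 167 and 157 CPM in the other, without overlap (log2 fold change -0.36 ± 0.13, adjusted p = 0.0924). It was called lower in 3 of 21 alternatives (lowest adjusted p 0.0229). SOT16 (0.45, adjusted p = 0.247) and IGMT1 (0.22, adjusted p = 0.486) had every library of the first WT above the other, as 17% of genes tested did. Days of Est and the experiment cannot be told apart here. Of the 32 other genes, GGP3 (0.88), CYP81F4 (1.19) and MYC2 (0.64) were called higher, and CYP79B3 (-0.90) and APK2 (-1.34) lower. CYP79B3 lost the call with limma-voom (adjusted p = 0.0596), with relative log expression size factors (0.0511) and with most single libraries left out. APK2 lost it with limma-voom (0.0774) and with any one library of either WT left out, and MYC2 without replicate 2 of either WT.

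Within groups the genes still varied together in part. After each library was set against its group mean on the log2(CPM + 0.5) scale, the 36 pairs among the 9 genes, MYB122 left out, had a median Pearson r of 0.49 over 12 libraries, from 0.11 for PEN2 with MYB34 to 0.91 for CYP83B1 with SUR1. CYP83B1 was at 0.86 with MYB51 and at 0.61 with MYB34. The latter value is uncertain, since MYB34 had only 1 to 17 counts in each library outside the SnRK1-labelled line. PEN2 and IGMT1 were at 0.85. These points share their library and its scaling, and are given as a description.

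Genes with the pattern most like that of 4 members were sought among 11074 genes averaging 10 CPM or more, by Pearson r of log2(CPM + 0.5) over the 12 libraries. For MYB51 they were LHT7 (0.996), AMT2 (0.996) and ABCC3 (0.995), and 771 genes reached 0.95. For CYP83B1 they were AT3G63380 (0.987), AACT1 (0.987) and YLS5 (0.985), with 359 genes at 0.95. For MYB122, which had 0 to 2 counts in each of the other 9 libraries, they were AT1G48210 (0.994), TRP1 (0.993) and BIP2 (0.993), with 796 genes, and for MYB34 they were GSTU22 (0.972), B73 (0.967) and CXE16 (0.967), with 14 genes. All these values include the gap between the SnRK1-labelled line and the other 9 libraries. With group means removed, r was 0.83 to 0.91 for the genes named beside MYB51, 0.85 to 0.90 beside CYP83B1 and 0.74 to 0.78 beside MYB34. The genes were picked by r over the same 12 libraries, so these values are no separate check. TRP1 encodes an enzyme of tryptophan synthesis, which supplies the pathway. As it is among 796 genes that reached 0.95 with MYB122, its place here says little about the pathway.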

How the data were processed

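Per the labels' protocols, a NEBNext mRNA kit turned 5 µg of RNA per sample into a library. The submitters' processing notes name TAIR10 as the build, with Bowtie 0.12.8, SAMtools 0.1.18 and FastQC as tools. The program that counted reads, its use of strand and its handling of reads matching several places: not given in the sources used here. Raw counts of 28775 genes were deposited by the authors as whole numbers, with 1 library per file, 0 rows that name no gene and 0 library columns unmatched to a sample.

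The test was edgeR's (4.0.16, R 4.3.3): filterByExpr with a minimum count of 10, TMM scaling, and 1 quasi-likelihood fit of 12 libraries with group as the only term (common biological coefficient of variation 13.2%). Genes were called at an adjusted p under 0.05. The test was also run on simulated data with 200 changed genes, which does not cover a comparison with 68.4% of genes called. Standard errors came from the F statistic, and 95% intervals use the 8 residual degrees of freedom among libraries, so an interval may exclude 0 where the adjusted p misses the threshold. Levels per kb use the longest TAIR10.1 transcript. Names, overlaps and sequences came from TAIR10.1 (RefSeq), to which 28009 genes matched by locus code. None of the exon bases of the 10 genes is shared with another gene, and of the 10 only IGMT1 shares 50-base stretches with others.

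The members, gene lists and tests were chosen with earlier results of these data known. The genes named were the 10 members, the listed pathway genes and markers, the targeted genes and the 3 genes most like each of MYB34, MYB51, MYB122 and CYP83B1. The 22 alternatives were relative log expression size factors, library totals, TMM on the 5000 most expressed genes, limma-voom (limma 3.58.1), DESeq2 1.42.0, leaving the low-count filter out, requiring 5 CPM in 3 libraries, only the groups compared, a replicate block, a 2-fold minimum and each of the 12 libraries left out. Python 3.11.15 with matplotlib 3.10.9 drew the figures.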

Additional observations from a re-analysis of the deposited data

Results flagged for a closer look

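The responses of the 9 genes that could be tested in both experiments differed between the lines by a test of the difference itself, the response of the SnRK1-labelled line minus that of the S1-labelled line on the log2 scale, with edgeR's quasi-likelihood test. The core enzyme genes differed by 2.85 for CYP83B1, 1.99 for SUR1, 2.54 for UGT74B1 and 2.35 for SOT16 (adjusted p from 6.17e-06 for UGT74B1 to 0.000145 for SUR1). The difference was 1.83 for CYP81F2 (adjusted p = 0.0014) and 1.08 for PEN2. Among the regulators it was 2.94 for MYB51 and 2.76 for MYB34 (adjusted p = 0.00199). MYB122 is left out, since it was tested only through its counts in the SnRK1-labelled line. For IGMT1 it was -0.65 (adjusted p = 0.042), with the opposite direction to the rest, and this call was lost in 14 of 20 refits. Of all genes tested, 54.5% were called in this difference.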

How the results depend on the processing

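The 8 genes called higher in the SnRK1-labelled line kept that call in all 21 alternatives that refit the data. The median of the 9 genes was 3.28 under library totals and 3.05 with TMM on the 5000 most expressed genes, and 2.39 to 2.76 with each library left out; the number called lower was 0 to 1 then, IGMT1 being called without replicate 1 of the line. IGMT1 was at 0.40 and 0.18 under those scalings. The median of all genes was 0.04, 0.64 and 0.40, and the calls were 6514 higher and 6068 lower (51.8% higher), 10465 and 2938 (78.1%), and 8792 and 4004 (68.7%); a 2-fold minimum left 4253 and 3037.

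In the S1-labelled line the number of the 9 called higher was 1 under library totals, 2 with no filter, 2 with only the groups compared and 1 with a replicate block, and 0 to 1 with each library left out; the median was 0.16 to 0.52 then. MYB34 was at -1.10 to 0.08 with each library left out, the last without replicate 3 of the WT. Over all genes 299 were higher and 175 lower (63.1%), against 558 and 102 under library totals (84.5%), 578 and 451 with only the groups compared, 149 and 59 at 2-fold, and 91 to 504 higher and 39 to 362 lower with each library left out (fewest higher without replicate 2 of the WT, fewest lower without replicate 2 of the line, most without replicate 3 of the SnRK1-labelled line).

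Between the WT groups 1 gene, PEN2, was called lower under library totals, the 5000-gene scaling and only the groups compared, and the median was -0.17 to 0.19 with each library left out. CYP83B1 was at -0.07 under library totals, -0.04 under the 5000-gene scaling, -0.01 with only the groups compared and -0.01 with a replicate block, and -0.25 to 0.23 with each library left out (-0.09 without replicate 1 of the SnRK1 WT, -0.25 without replicate 2 of the S1 WT). SUR1 was at -0.05 and -0.03 under those scalings, and -0.17 to 0.21 with each library left out (-0.05 and -0.02 without replicates 1 and 3 of the SnRK1 WT, -0.17 without replicate 2 of the S1 WT). All genes gave 1135 higher and 1092 lower (51.0%), 724 and 1438 under library totals (33.5%), 898 and 1388 under the 5000-gene scaling (39.3%), 241 and 343 at 2-fold, and 622 to 1450 higher and 589 to 1409 lower with each library left out (fewest without replicate 2 of the SnRK1 WT).

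In the difference of the responses 0 genes were called lower with relative log expression, library totals, the 5000-gene scaling, DESeq2, the 5 CPM filter and the 2-fold minimum, and 0 to 1 with each library left out. The median was 2.83 under library totals, 2.71 under the 5000-gene scaling and 1.95 to 2.54 with each library left out. All genes gave 5002 and 5013 (49.9%), 7678 and 2601 under library totals (74.7%), 6945 and 3207 under the 5000-gene scaling (68.4%) and 2902 lower at 2-fold. The causes were not tested.

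The labels do not say whether replicate numbers pair the samples, and 3 libraries per group cannot settle it. Deviations of same-numbered libraries correlated at -0.019 to 0.118 between the SnRK1-labelled line and its WT. Between the S1-labelled line and its WT they correlated at -0.092 to 0.043. Not every library correlated best with its own number. With the replicate block all genes gave 6626 higher and 6189 lower in the SnRK1-labelled line and 390 and 225 in the S1-labelled line. The block called CYP81F2 in the S1-labelled line (adjusted p = 0.0397) and changed the call of no other member in any comparison. Depth limits MYB34 and MYB122 most, with 15 and 1 counts over the S1-labelled line and 20 and 3 over its WT.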
